A study of Drosophila melanogaster with 34 samples.

Results

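Prat2 and 5 further genes of de novo purine synthesis, namely Prat, ade2, ade3, ade5 and AdSL, are described here across the populations, exposures and extraction days of a Drosophila melanogaster selection experiment. The 6 genes were taken by name, as all probe sets that the platform annotation assigns to these symbols. Each gene had 1 probe set, so the set holds 6 of the 11983 genes that have a probe set of their own on the array. All 6 passed the filter on low values (at least 4 on at least 5 arrays), which 8051 of those genes and 9729 of all 18769 probe sets passed. Of the symbols, ade2 is now Pfas, ade3 is Gart, ade5 is Paics and AdSL is written Adsl. The annotation gives each of these probe sets to 1 gene only. The Prat2 probe set is of the array maker's _a_at type and the ade2 probe set of its _s_at type, names used for sets that can read several transcripts, and cross-reading between the paralogs Prat and Prat2 was not tested.

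Cells build purine nucleotides de novo by assembling the ring, atom by atom, on phosphoribosyl pyrophosphate, until inosine monophosphate (IMP) is reached, and IMP is then turned into AMP or GMP. Glutamine, glycine, aspartate and one-carbon groups carried by folate supply the atoms. The entry step, catalysed by amidophosphoribosyltransferase, is the classical control point of the pathway, and Drosophila has a pair of paralogous genes for it, Prat and Prat2.

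The study kept 6 populations from a common base population for more than 300 generations: R1 and R2 on standard medium (the control regime), E1 and E2 on medium with 12% ethanol (the ethanol regime), and M1 and M2 on both media in equal shares of the vials of each generation (the variable regime). Before the experiment all populations were reared on standard medium for at least 2 generations, and their eggs then lay for 15 hours under water or under 18% ethanol, which came to about 12% after mixing with the laying medium. RNA came from pools of 50 to 200 newly hatched first-instar larvae, extracted in 3 blocks on different days. The titles number the samples 1, 2 and 5, and these numbers are read here as the blocks and called days, although the labels do not define them. There are 34 arrays, 17 per exposure, with 6 each for the control and ethanol regimes and 5 for the variable regime in either exposure, since ethanol-soaked M2 of day 1 and water-soaked M1 of day 2 were not analysed here. Each regime has 2 populations, so a statement on regimes rests on 2 independent values per regime. The labels do not tell whether larvae of 1 population were raised as separate cultures, and p-values for exposure, population and day measure only the spread between these RNA samples.

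Values are log2 expression. Array medians lay between 3.89 and 4.02, from 9273 to 9400 probe sets reached a value of 4 on each array, and correlations between arrays ran from 0.984 to 0.998. Egg-shell genes, which mark adult ovary, stayed below 4 for 6 of 6 probe sets (gene means from 1.66 to 2.07), and muscle genes were high for 3 of 3 measured markers (gene means above 11).

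The population labels of the extraction days went against each other, which touches several results. Each array was set against the mean profile of each population on 1 other day, over the 500 probe sets that differed most between populations on that day. Between days 1 and 2, all 7 arrays of the variable and ethanol regimes matched their own population. Against either of those days, all 8 day 5 arrays labelled M1, M2, E1 or E2 instead matched the population of the same number in the other regime, with correlations from 0.40 to 0.80 against 0.018 to 0.47 for the labelled population. All 4 control arrays matched their own label on every day. The match does not tell which days carry the wrong labels, so the arrays are kept as labelled here, and the main results that depend on these labels are also given without the 8 day 5 arrays, that is on 26 arrays and 9651 tested probe sets.

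Prat2 varied far more than the other members. Its values on the 34 arrays ran from 2.36 to 9.33, a range of 6.97, the 21st widest of the 9729 tested probe sets, whose median range was 1.04. Prat, its paralog, stayed between 10.23 and 10.84, ade2 between 8.26 and 8.98, AdSL between 8.03 and 8.90, and ade3 between 6.23 and 7.37. The carboxylase and synthetase gene ade5 lay between 9.44 and 10.56 on 33 arrays, and its 34th value was 11.11. The residual SD of Prat2 in the fit of all arrays was 1.07, against a median of 0.193 over all probe sets, and it was 0.397 on the 26 arrays.

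Prat2 encodes one of the amidophosphoribosyltransferases, the enzymes of the entry step. In water-soaked R1 it measured 2.63, 2.36 and 5.61 on days 1, 2 and 5, and in ethanol-soaked R1 it measured 7.97, 7.39 and 9.33. In water-soaked R2 it measured 3.72, 3.51 and 5.28, and in ethanol-soaked R2 it measured 6.54, 6.82 and 8.36. In both control populations every ethanol array lay above every water array.

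In M1, Prat2 measured 3.08 and 9.16 in water on days 1 and 5, and 7.05, 7.23 and 8.40 after ethanol on days 1, 2 and 5. In M2 it measured 2.53, 3.19 and 5.95 in water, and 4.14 and 8.12 after ethanol on days 2 and 5. The exposures overlap in both populations over all days. Within days 1 and 2 alone they do not: M1 rose from 3.08 to at least 7.05 and M2 from at most 3.19 to 4.14.

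In E1, Prat2 was high in both exposures, with 8.38, 8.27 and 7.07 in water and 8.34, 8.86 and 8.75 after ethanol. Its sister population E2 measured 3.64, 3.46 and 5.76 in water and 6.19, 5.59 and 7.45 after ethanol. The exposures of E1 overlap, while in E2 they overlap only between the day 5 water array and the day 2 ethanol array. E1 in water lay above all 3 water arrays of E2, and on days 1 and 2 no other water array of any population exceeded 3.72.

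**Figure D1:**
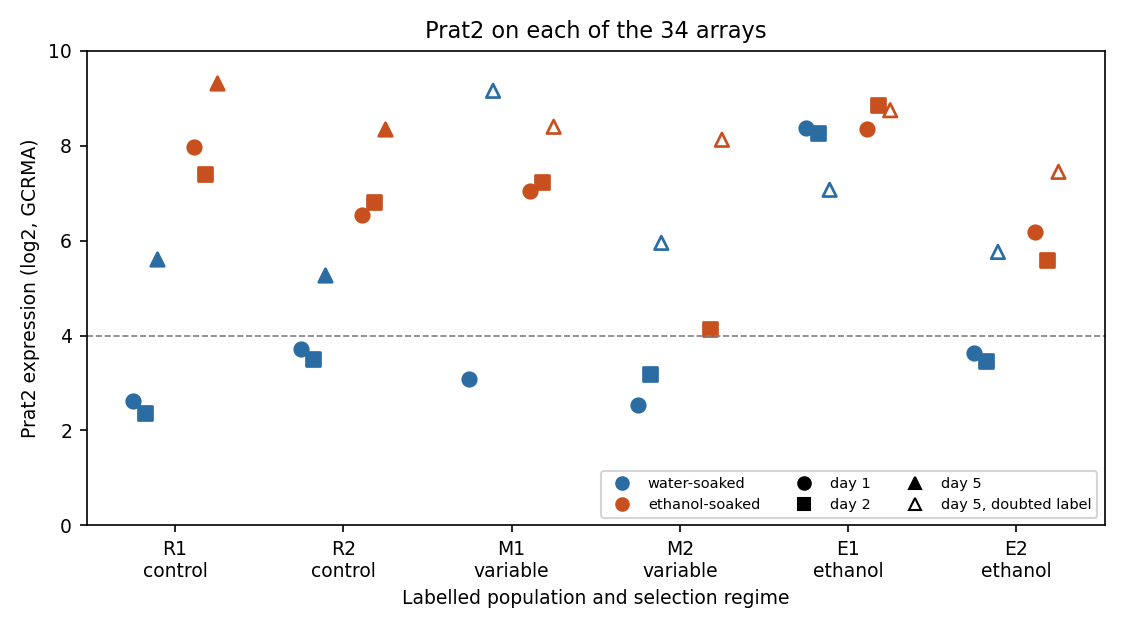
Prat2 expression (log2, vertical axis) on each of the 34 arrays, by labelled population (horizontal axis), exposure (colour) and extraction day (symbol), with open triangles for the 8 day 5 arrays whose labels did not match the other days. Water arrays of days 1 and 2 lie below the dashed line at 4 in every population but E1, where they reach 8.27 and 8.38.

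Averaged over the 6 populations, Prat2 rose after ethanol by 2.38 ± 0.33 on the log2 scale (limma standard error), a 5.21-fold change with limma adjusted p = 3.9e-06, in a comparison in which 31.2% of all tested probe sets were called at an adjusted p under 0.05. Over the 17 arrays of each exposure its values ran from 2.36 through a median of 3.72 to 9.16 in water and from 4.14 through 7.45 to 9.33 after ethanol, so the groups overlap. Of 16 pairs of arrays from the same population and day, 14 were higher in ethanol, with differences from -0.76 to 5.34 and a median of 2.36. The exceptions were M1 on day 5 (-0.76) and E1 on day 1 (-0.04). Without the 8 day 5 arrays the rise was 2.63 ± 0.15 (limma adjusted p = 2.7e-10, with 25.5% of probe sets called).

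Low values limit the size of these changes. Of the 17 water arrays 9 had Prat2 below 4, the range in which the background correction shapes the value, while none of the 17 ethanol arrays did. With all values below 4 set to 4, the rise was 1.92 ± 0.29 (limma adjusted p = 1.3e-05). In RNA from whole larvae, more cells of a type that expresses a gene and more RNA per cell cannot be told apart.

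Prat, the paralog for the same entry step, moved the other way and by far less. Its values ran from 10.48 through 10.65 to 10.84 in water and from 10.23 through 10.45 to 10.76 after ethanol, which overlap. It fell by 0.21 ± 0.04 on the log2 scale (limma adjusted p = 0.00046), and 14 of 16 same-day pairs were lower in ethanol. Without the 8 arrays the change was -0.17 ± 0.05 (limma adjusted p = 0.017). In a fit of day 1 alone it was -0.03 ± 0.06 (limma adjusted p = 0.82).

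Of the enzymes that follow the entry step, ade3 encodes a protein with several of the early activities, and ade2 the synthase that adds a nitrogen from glutamine. The ethanol change of ade3 was 0.15 ± 0.09 (limma adjusted p = 0.22, 95% interval -0.04 to 0.33) and that of ade2 was 0.03 ± 0.06 (limma adjusted p = 0.74, 95% interval -0.09 to 0.15). Neither passed the test, although ade3 did without population M1 (0.25, limma adjusted p = 0.049), and the same-day pairs were higher in ethanol in 10 of 16 for each. Rises of the size seen for Prat2 lie outside both intervals.

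The enzyme encoded by ade5 carries out the carboxylation and the addition of aspartate, and AdSL encodes adenylosuccinate lyase, which acts in the main pathway and again in the branch to AMP. In water ade5 ran from 9.57 through 9.84 to 11.11, and after ethanol from 9.44 through 9.73 to 10.55. It fell by 0.25 ± 0.08 (limma adjusted p = 0.021), and 11 of 16 same-day pairs were lower in ethanol, although the groups overlap. This call rests partly on 1 array: without water-soaked M1 of day 5 the change was -0.14 (limma adjusted p = 0.088), and on the 26 arrays it was -0.18 ± 0.07 (limma adjusted p = 0.063). AdSL changed by -0.06 ± 0.06 (limma adjusted p = 0.46, 95% interval -0.19 to 0.06), with 9 of 16 pairs lower.

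**Figure D2:**
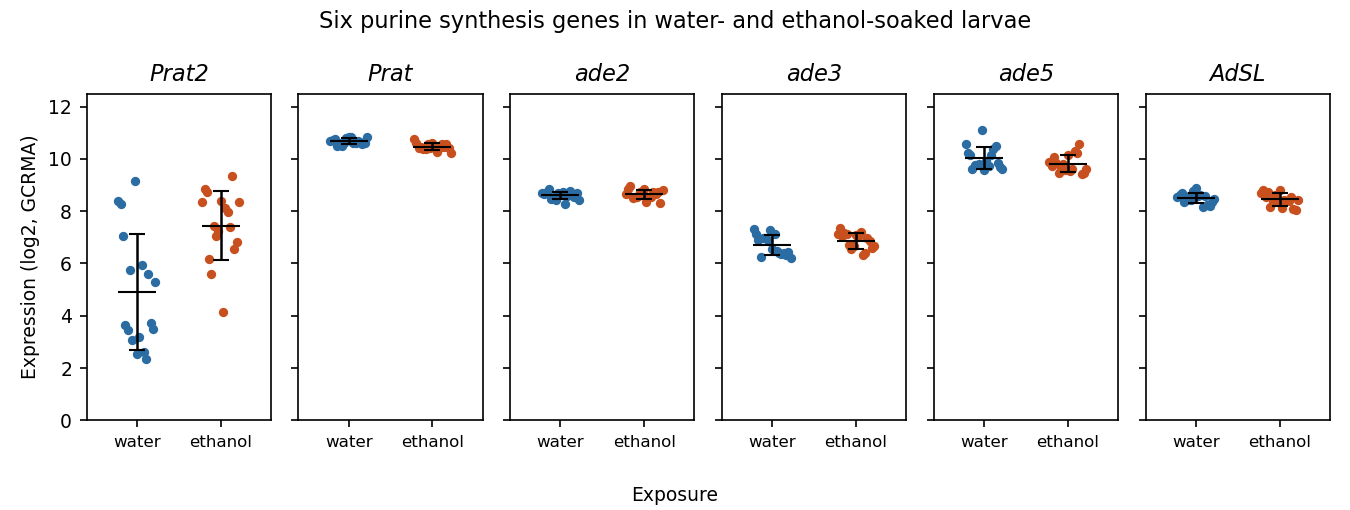
Expression (log2, vertical axis) of the 6 genes on the 17 water arrays and 17 ethanol arrays (points), with the mean and SD as bars. Prat2 spans 2.36 to 9.33, whereas each of the other genes stays within a range of 1.68 or less.

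The ethanol changes of the other members minus that of Prat2 ran from -2.23 ± 0.39 for ade3 to -2.63 ± 0.39 for ade5. Every probe set carries the same Prat2 values in this fit, so the pooled spread is nearly that of Prat2 alone. The p-values then come out too small and are not given. By them 99.9% of the other probe sets (9714 of 9728) were called different from Prat2, so a difference from Prat2 says nothing particular about the purine genes. Without the 8 arrays the differences of the 5 members ran from -2.48 ± 0.20 to -2.81 ± 0.19.

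The rise of Prat2 was largest in the control regime. There it measured from 2.36 through a median of 3.61 to 5.61 on 6 water arrays and from 6.54 through 7.68 to 9.33 on 6 ethanol arrays, with no overlap, and rose by 3.88 ± 0.55 or 14.8-fold (limma adjusted p = 1.4e-05, 18.1% of probe sets called). Of the 6 water arrays 4 lay below 4, and with such values set to 4 the rise was 3.25 ± 0.48, or 9.53-fold (limma adjusted p = 2.7e-05). In the variable regime the change was 1.82 ± 0.63 (limma adjusted p = 0.082, 6.84% called) and in the ethanol regime 1.43 ± 0.55 (limma adjusted p = 0.12, 8.43% called), neither past the test. Single arrays move the former value: without water-soaked M1 of day 5 the change was 2.995, and without ethanol-soaked M2 of day 2 it was 2.36. Each omission leaves a group with a single array, so these values are given without a test. The call in the ethanol regime turns on the 8 day 5 arrays: on the 26 arrays Prat2 rose there by 1.31 ± 0.25 (limma adjusted p = 0.0027, 5.31% called). In the variable regime the Prat2 value on the 26 arrays was 2.69 (3.29% called), given without a test. Water-soaked M1 (3.08) and ethanol-soaked M2 (4.14) are then single arrays, and their spread comes from other groups.

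By population, the change was 4.70 ± 0.78 in R1 (limma adjusted p = 0.00033, 7.11% called) and 3.07 ± 0.78 in R2 (limma adjusted p = 0.013, 8.91% called). It did not pass in M1 (1.76 ± 0.88, limma adjusted p = 0.46, 2.12% called), M2 (1.89 ± 0.88, limma adjusted p = 0.31, 2.13% called), E1 (0.74 ± 0.78, limma adjusted p = 0.81, 2.51% called) or E2 (2.13 ± 0.78, limma adjusted p = 0.15, 3.10% called). All 6 estimates are above 0. With the 8 arrays left out, E2 rose by 2.34 ± 0.35 (limma adjusted p = 0.00083, 2.32% called). E1 at 0.28 ± 0.35 (limma adjusted p = 0.90, 1.82% called, 95% interval -0.45 to 1.00) again did not pass. The values of M1 (4.08) and M2 (1.29) are given without a test. The former rests on a single water-soaked array, at 3.08 and so below 4, and the latter on a single ethanol-soaked array. None of the other 5 members passed in any single population, either on all 34 arrays or on the 26.

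**Figure D3:**
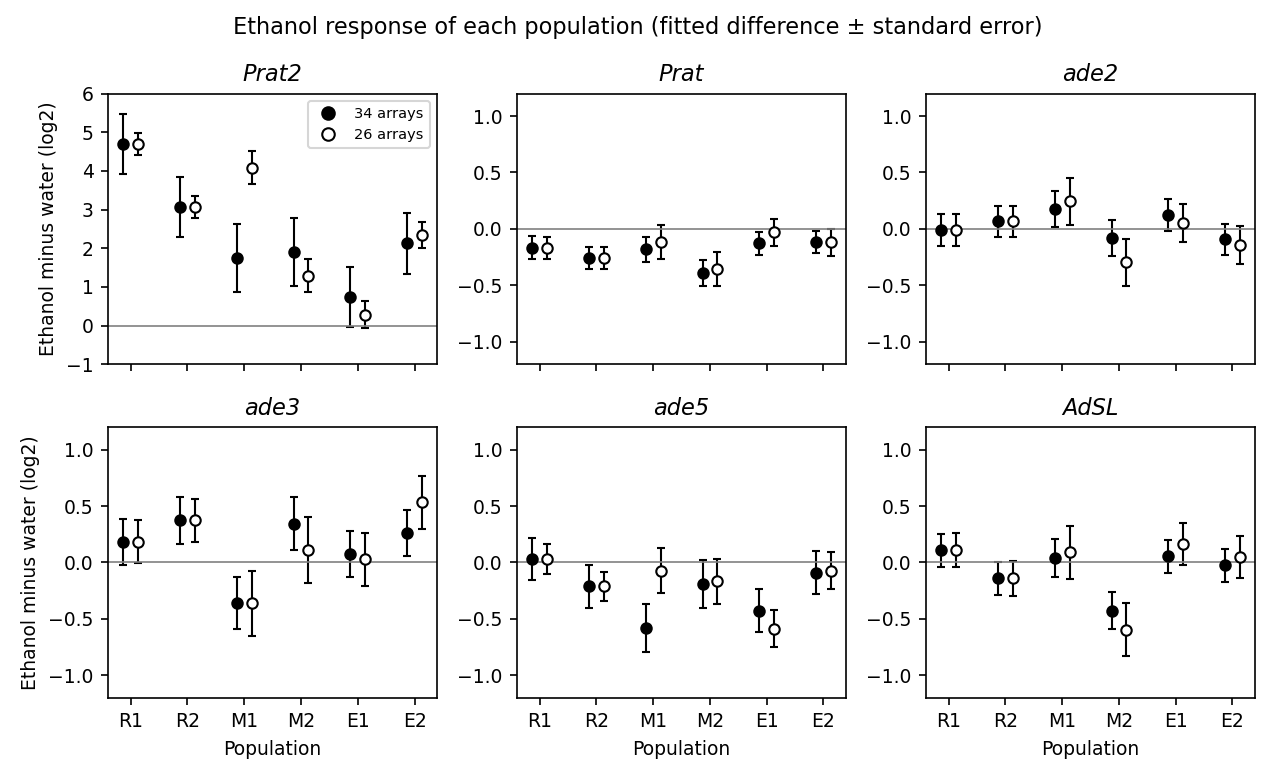
Ethanol minus water difference (log2, vertical axis) of each gene in each population (horizontal axis), as the fitted value with its standard error, from all 34 arrays (filled) and without the 8 day 5 arrays of the variable and ethanol regimes (open). The Prat2 panel has its own scale and runs from 0.28 in E1 to 4.70 in R1, while the values of the other panels lie within 1 of 0.

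Whether the response differs between regimes was tested with the population as the replicate, which gives 2 values per regime. The response of Prat2 was lower in the ethanol than in the control regime by 2.45 on the log2 scale (-2.45 ± 0.51), but limma adjusted p was 0.43 and 0% of probe sets were called. With values below 4 set to 4 it was -1.97 ± 0.36 (limma adjusted p = 0.40). The variable minus control difference was -2.06 ± 0.51 (limma adjusted p = 0.67) and the ethanol minus variable difference was -0.39 ± 0.51 (limma adjusted p = 1), also with 0% called in each. On the 26 arrays the ethanol minus control difference was -2.57 ± 0.90 (limma adjusted p = 1, 0.0207% called), the variable minus control difference -1.2 ± 0.90 (limma adjusted p = 0.97, 0% called) and the ethanol minus variable difference -1.38 ± 0.90 (limma adjusted p = 0.81, 0.0104% called). No difference between regimes in the Prat2 response passed the test with all populations. Without R2, when the control regime is R1 alone and is assumed to vary as the others do, the differences from control passed, at -3.26 for the ethanol regime and -2.87 for the variable regime (limma adjusted p = 0.0096 and 0.011).

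Levels of Prat2 within 1 exposure gave no call between regimes either. In water the ethanol minus control difference was 2.25 ± 1.19 (limma adjusted p = 0.89) and the variable minus control difference 1.00 ± 1.19 (limma adjusted p = 1), with 0% of probe sets called in each. After ethanol they were -0.20 ± 0.88 and -1.06 ± 0.88 (limma adjusted p = 0.97 and 0.81), again with 0% called. Without the 8 arrays the differences in water were 2.76 ± 1.35 and -0.21 ± 1.35 and those after ethanol 0.19 ± 1.2 and -1.41 ± 1.2 (limma adjusted p of 0.88 or more, 0% called). Within the ethanol regime E1 had a day-adjusted water mean of 7.91 and E2 one of 4.29, next to 3.53 and 4.17 in the controls R1 and R2.

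The sister populations of the ethanol regime differed in Prat2. Over both exposures E2 was 2.93 ± 0.55 below E1 (fitted as -2.93, limma adjusted p = 0.00086, 11.0% called), and in water the difference was -3.62 ± 0.78, a 12.3-fold lower level in E2 (limma adjusted p = 0.0076, 4.01% called) or 9.98-fold with values below 4 set to 4. After ethanol it was -2.24 ± 0.78 and did not pass (limma adjusted p = 0.14, 2.88% called). Leaving out the 8 arrays, these differences were -3.74 ± 0.25, -4.78 ± 0.35 and -2.71 ± 0.35, and all passed (limma adjusted p = 9.7e-09, 7.1e-08 and 0.0001, with 11.6%, 5.78% and 3.96% called). The water difference is lost without day 1 (-3.06, limma adjusted p = 0.13), without day 2 (-3.03, limma adjusted p = 0.34), without water-soaked E1 of day 1 (-2.98, limma adjusted p = 0.076) or of day 2 (-3.08, limma adjusted p = 0.075), and with no term for day (-3.62, limma adjusted p = 0.15). The response of the sisters did not differ beyond the test, at 1.38 ± 1.10 for E2 minus E1 (limma adjusted p = 1, 0% called) and 2.07 ± 0.49 on the 26 arrays (limma adjusted p = 0.55, 0% called).

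In the other pairs of sisters, R2 minus R1 was -0.18 ± 0.55 in level (limma adjusted p = 0.92) and -1.62 ± 1.10 in response (limma adjusted p = 0.95, 0% called). M2 minus M1 was -1.85 ± 0.63 in level (limma adjusted p = 0.12, 3.67% called) and 0.14 ± 1.24 in response (limma adjusted p = 1, 0% called). On the 26 arrays M2 minus M1 was -1.60 in level and -2.99 after ethanol, given without a test. The ethanol-soaked M2 value is there the single 4.14 of day 2, and water-soaked M1 is also a single array.

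The day-adjusted Prat2 means were lowest in water-soaked R1 (3.53), M2 (3.89), R2 (4.17) and E2 (4.29), among which no order is read because 2 of the 3 arrays of each lay below 4. They were followed by ethanol-soaked M2 (5.78), water-soaked M1 (5.81), ethanol-soaked E2 (6.41), R2 (7.24) and M1 (7.56), water-soaked E1 (7.91), and ethanol-soaked R1 (8.23) and E1 (8.65). Of the 11 gaps between neighbours in this order, 10 were smaller than the residual SD of 1.07, and the gap of 1.5 above water-soaked E2 was larger. Water-soaked E1 thus stands among the ethanol-soaked populations. On the 26 arrays the water-soaked populations other than E1 lay between 3.53 and 4.22, followed by ethanol-soaked M2 (4.83), E2 (6.57), R2 (7.24), M1 (7.82) and R1 (8.23), and by E1 in water (9.0) and after ethanol (9.28). Water-soaked M1 was thus among the lowest there, and the largest gap, 1.74, lay between ethanol-soaked M2 and E2. In this fit the variable and ethanol regimes have no day 5 array, and their means include a day 5 term that comes from the controls alone. Both E1 means therefore lie above every measured E1 value, of which the highest was 8.86.

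Among the other members, ade5 differed most between sister populations. R1 ran from 10.14 through 10.32 to 10.55 over its 6 arrays and R2 from 9.44 through 9.61 to 9.84, with no overlap, and R2 was lower (-0.73 ± 0.13, a 1.66-fold difference, limma adjusted p = 0.0006) in a comparison with 8.09% of probe sets called. The control arrays matched their labels, although the spread and the day terms of the fit come from all arrays. The call was kept without the doubted arrays, but without day 2 it was lost (-0.74, limma adjusted p = 0.055). E2 was below E1 as well (-0.42 ± 0.13, limma adjusted p = 0.041), with E1 from 9.73 through 10.11 to 10.56 and E2 from 9.44 through 9.70 to 9.83, which overlap. The level difference was -0.43 ± 0.11 on the 26 arrays (limma adjusted p = 0.020, 11.6% called). In water alone E2 minus E1 was -0.59 ± 0.19 and did not pass (limma adjusted p = 0.079, 4.01% called), and on the 26 arrays it was -0.68 ± 0.16 (limma adjusted p = 0.015, 5.78% called).

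**Figure D4:**
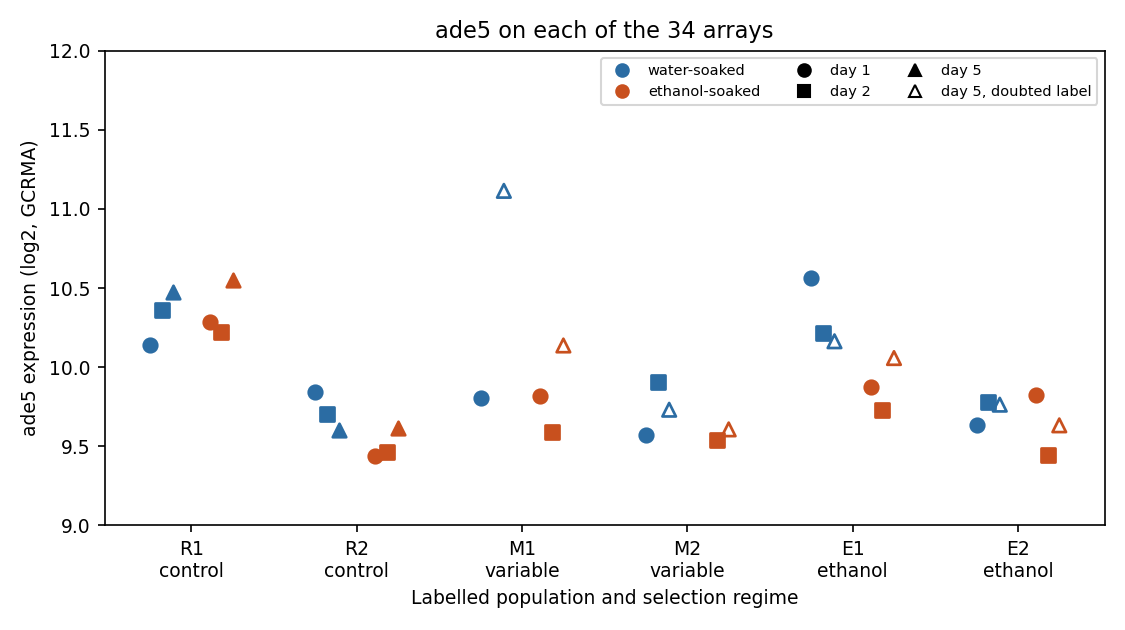
Expression of ade5 (log2, vertical axis, starting at 9) on each of the 34 arrays, by labelled population (horizontal axis), exposure (colour) and extraction day (symbol), with open triangles for the 8 day 5 arrays whose labels did not match the other days. R1 lies at 10.14 or above and R2 at 9.84 or below, and water-soaked M1 of day 5 stands alone at 11.11.

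In water-soaked larvae ade3 lay between 6.23 and 6.43 on the 6 control arrays, with a median of 6.38. It lay between 6.49 and 7.29 (median 6.90) on the 5 variable arrays and between 6.25 and 7.31 (median 6.98) on the 6 ethanol-regime arrays. The variable arrays did not overlap with the controls, and the lowest ethanol-regime array, E2 of day 1, did. With populations as replicates the ethanol minus control difference in water was 0.57 ± 0.19 (limma adjusted p = 0.83) and the variable minus control difference 0.57 ± 0.19 (limma adjusted p = 1), in comparisons where 0% of probe sets were called. On the 26 arrays the differences were 0.60 ± 0.21 and 0.59 ± 0.21 (limma adjusted p = 1 for both, 0% called). With single arrays as replicates, which treats arrays of 1 population as independent, the former gave limma adjusted p = 0.038.

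For Prat, ade2 and AdSL the ethanol minus control differences in water were -0.03 ± 0.09, 0.05 ± 0.10 and 0.20 ± 0.11 (limma adjusted p = 0.98, 0.97 and 0.89), and the variable minus control differences 0.08 ± 0.09, -0.06 ± 0.10 and 0.31 ± 0.11 (limma adjusted p = 1 for each). The last, of AdSL, had a 95% interval of 0.04 to 0.57 and was 0.30 ± 0.15 on the 26 arrays (limma adjusted p = 1). The ethanol minus control differences in their responses were 0.09 ± 0.11, -0.01 ± 0.15 and 0.03 ± 0.18, each with limma adjusted p = 1. No regime comparison of these 3 genes passed the test, where 0% of all probe sets were called.

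Of the 6 genes, Prat2 alone passed the test between extraction days, and whether its day difference exceeded those of the others was not tested. Averaged over populations and exposures, Prat2 was higher on day 5 than on day 1 by 2.01 ± 0.40 (limma adjusted p = 0.00027, 43.2% of probe sets called) and than on day 2 by 1.94 ± 0.40 (limma adjusted p = 0.00083, 32.5% called), while days 1 and 2 differed by 0.07 ± 0.42 (limma adjusted p = 0.93, 11.2% called). The day 5 minus day 1 differences of the other 5 ran from -0.04 to 0.18, with limma adjusted p of 0.14 or more, and that of ade5 (0.18) had a 95% interval of -0.02 to 0.38. In the 4 water-soaked control samples of days 1 and 2 Prat2 was at most 3.72, and on day 5 it was 5.28 and 5.61. In the control populations alone, a check chosen after the values were seen, the rise was 1.93 ± 0.26 (limma adjusted p = 0.00099, 16.7% called). On the 26 arrays it was 2.01 ± 0.23 (limma adjusted p = 5e-05, 21.4% called). The only day 5 arrays there are the same control arrays, so the latter value is not separate evidence.

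What differed between the days beyond the extraction block is not given in the labels. In water the day 5 minus day 1 difference of Prat2 was 2.48 ± 0.56 (limma adjusted p = 0.0026, 23.1% called). The ethanol rise of Prat2 was present on each day, at 2.94 ± 0.60 on day 1 (limma adjusted p = 0.0025, 8.93% called), 2.34 ± 0.60 on day 2 (limma adjusted p = 0.010, 13.0% called) and 1.93 ± 0.56 on day 5 (limma adjusted p = 0.018, 18.3% called). These did not differ beyond the test: day 2 minus day 1 was -0.60 ± 0.84 (limma adjusted p = 1, 0% called), day 5 minus day 1 was -1.01 ± 0.82 (limma adjusted p = 0.64, 0.0617% called) and day 5 minus day 2 was -0.41 ± 0.82 (limma adjusted p = 0.84, 0.0103% called). The rises on the 26 arrays were 2.72 ± 0.21, 2.70 ± 0.21 and 1.98 ± 0.39. The last is a fitted average over all populations, shifted by a day 5 term that comes from the control arrays alone. It is not the rise of the controls, whose same-day differences on day 5 were 3.72 in R1 and 3.08 in R2. Prat fell on days 2 and 5 (-0.23 ± 0.07 and -0.30 ± 0.07, limma adjusted p = 0.035 and 0.0022) and measured -0.08 ± 0.07 on day 1 (limma adjusted p = 0.55).

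The genes whose 12 day-adjusted means of population and exposure followed those of Prat2 most closely were not its pathway partners. By Pearson's r over these 12 means, the 5 nearest probe sets that name 1 gene were those of Mal-A1, a maltase gene (0.97), CG4377 (0.95), sand, a potassium channel gene (0.94), CG9512 (0.94) and CG30371 (0.93). The other members gave 0.56 for ade2, 0.52 for ade3, 0.24 for AdSL, 0.14 for ade5 and -0.31 for Prat, at ranks from 862 to 7153 of 9728. The 12 means share arrays and days, and the same exposure change runs through all of them, so r is a description. On the 26 arrays Mal-A1 was again the nearest (0.96), followed among named genes by CG9784, Cyt-b5-r, hgo and CG4377, while sand and CG9512 moved to ranks 22 and 37.

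The remaining genes of the pathway and of its supply were read from lists. In all, 41 list genes were tested, of which 10 were higher after ethanol, 14 lower and 17 not called, a share of calls to be read against the 31.2% of all tested probe sets. Their median change was -0.06, against 0.00 over all probe sets. Without the 8 arrays 8 were higher and 11 lower, where 25.5% of all tested probe sets were called.

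In the rest of de novo synthesis and the branches to AMP and GMP, 1 of 4 tested genes was lower and none higher. The gene that fell was ras, which encodes IMP dehydrogenase at the entry to the GMP branch (-0.26 ± 0.03, limma adjusted p = 1.9e-08). Adss and bur, for adenylosuccinate synthetase and GMP synthetase, measured -0.04 ± 0.03 and -0.09 ± 0.08, and Prps, which makes phosphoribosyl pyrophosphate, -0.08 ± 0.07. CG11089, for the last enzymes before IMP, is read only by 2 probe sets that also list CG31381, with -0.18 ± 0.12 (limma adjusted p = 0.26) and -0.13 ± 0.05 (limma adjusted p = 0.060). Thus, on all arrays, no tested gene of the route from phosphoribosyl pyrophosphate to AMP or GMP other than Prat2 was called higher.

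Of 4 salvage and nucleotide kinase genes, 1 was higher and 2 lower. The adenylate kinase gene Ak3 rose by 0.45 ± 0.10 (limma adjusted p = 0.0016), and Aprt, for adenine phosphoribosyltransferase, fell by 0.19 ± 0.05 on the log2 scale (limma adjusted p = 0.0065). Of 8 purine breakdown genes, 2 were higher and 2 lower. Adgf-A, for a secreted adenosine deaminase, measured -0.40 ± 0.08 (limma adjusted p = 0.00024), veil, for a 5′-nucleotidase, -0.37 ± 0.08 (limma adjusted p = 0.00055), and Adgf-D and AMPdeam, for further deaminases, 0.32 ± 0.11 and 0.16 ± 0.06 (limma adjusted p = 0.028 and 0.039). The breakdown list had 3 lower and none higher on the 26 arrays.

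Of 8 genes of folate and one-carbon supply, 4 were lower and none higher. The largest decrease was that of CG8665, for 10-formyltetrahydrofolate dehydrogenase, an enzyme that removes the formyl donor of purine synthesis (-0.87 ± 0.11, limma adjusted p = 6.9e-07). Nmdmc, for a mitochondrial methylenetetrahydrofolate dehydrogenase, measured -0.19 ± 0.04 (limma adjusted p = 0.0014), and Ts, for thymidylate synthase, -0.25 ± 0.08 (limma adjusted p = 0.015). CG7560 measured -0.28 ± 0.10 (limma adjusted p = 0.033).

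Of 10 genes of glutamine, glycine and aspartate supply, 7 were higher and 1 lower, with a median change of 0.38, and the counts were the same on the 26 arrays. CG6287, for phosphoglycerate dehydrogenase, and aay, for phosphoserine phosphatase, both of serine synthesis, rose by 0.70 ± 0.08 and 0.63 ± 0.09 (limma adjusted p = 2.7e-07 and 6.6e-06). CG6415 and CG3999 rose by 0.75 ± 0.10 and 0.41 ± 0.06 (limma adjusted p = 1e-06 and 3.8e-06). These encode parts of the glycine cleavage system, which uses glycine rather than supplying it. The gene that fell, named after its values were seen, was Got1, for the cytosolic aspartate aminotransferase, which fell by 0.13 ± 0.04 on the log2 scale (limma adjusted p = 0.013).

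Of 6 genes of pyrimidine synthesis, 3 were lower and none higher, led by Dhod, for dihydroorotate dehydrogenase (-0.39 ± 0.07, limma adjusted p = 7.3e-05). Only 1 was lower on the 26 arrays. RnrL, the large subunit of ribonucleotide reductase, which turns ribonucleotides into the building blocks of DNA, went from 8.27 in water to 7.44 after ethanol (-0.82 ± 0.09, limma adjusted p = 4.6e-08).

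**Figure D5:**
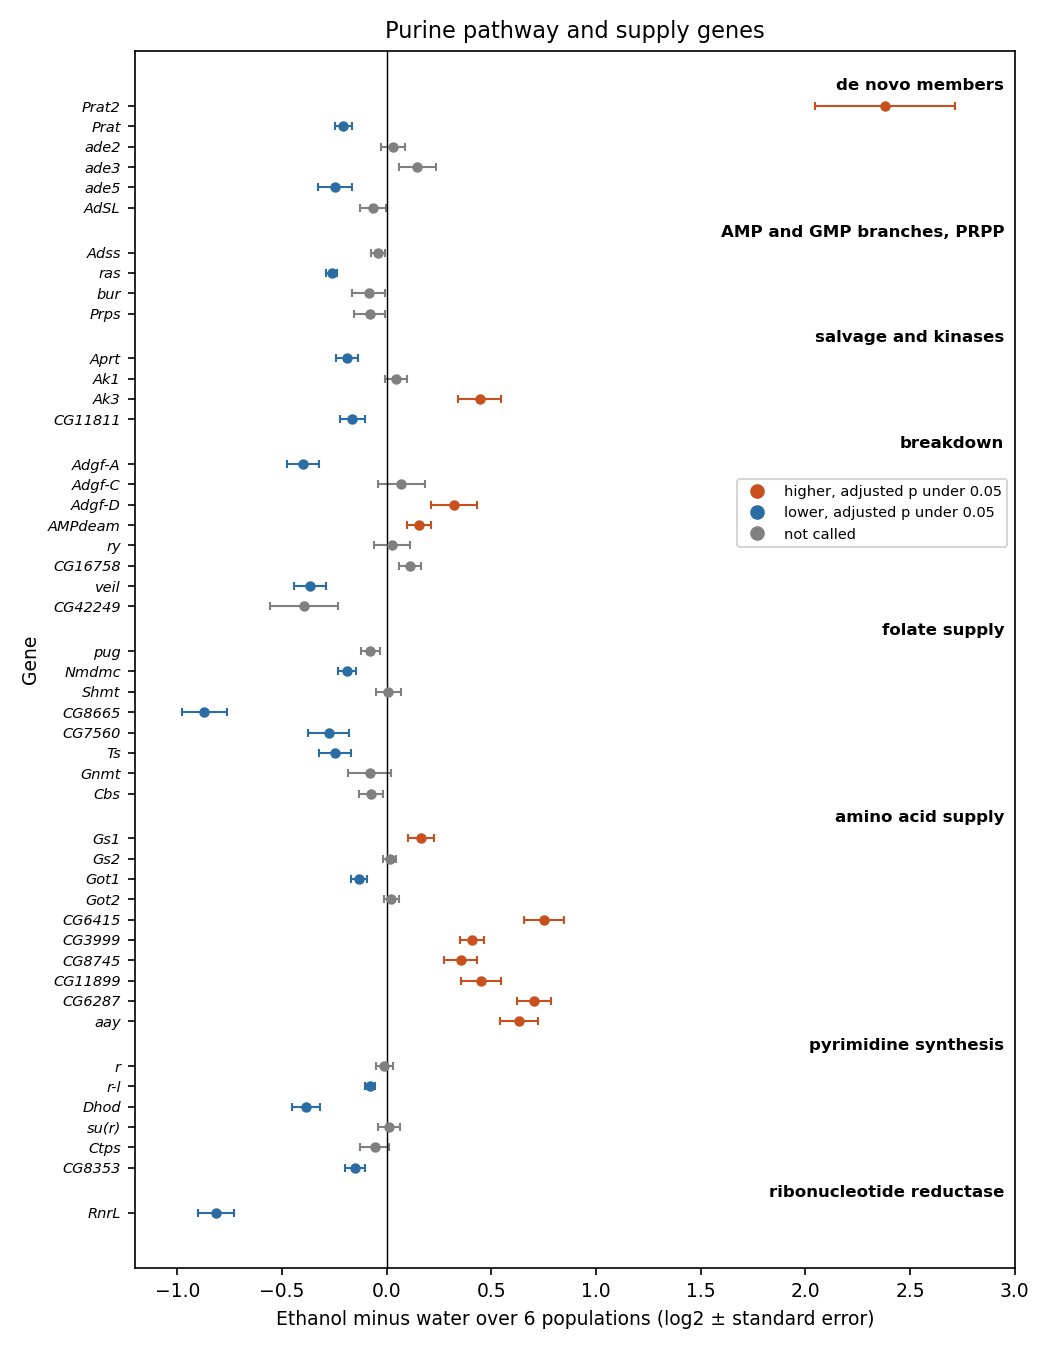
Ethanol minus water difference over the 6 populations (log2, horizontal axis, fitted value with standard error) of the 6 purine synthesis genes and of the 41 tested list genes, grouped by function (vertical axis), with colour for the call. Prat2 at 2.38 lies beyond every list gene, of which CG6415 reaches 0.75 and CG8665 reaches -0.87.

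Markers of tissues moved with exposure as well. Of 22 tested markers 2 were higher and 8 lower, in a comparison in which 31.2% of all tested probe sets were called. All 4 haemocyte markers were lower after ethanol, with mean marker levels per array from 7.62 to 8.38 in water and from 6.95 to 8.0 after ethanol. Of 4 fat body markers 2 were higher (Lsd-1 and Gbs-70E) and 2 not called, with levels from 9.86 to 11.1 in water and from 10.9 to 11.5 after ethanol. Of 4 midgut markers 2 were lower, of 3 Malpighian tubule markers 1 was lower, of 4 neuron markers 1 was lower, and none of 3 muscle markers was called. Between E1 and E2 in water, fat body levels ran from 10.2 to 10.3 and from 10.63 to 10.99. In that comparison 3 of 22 tested markers were called, against 4.01% of all probe sets. All were higher in E2: the fat body marker Lsd-1 (0.90 ± 0.23), the haemocyte marker Hml (1.04 ± 0.26) and the Malpighian tubule marker Irk3 (0.70 ± 0.16), with limma adjusted p of 0.022, 0.021 and 0.014. These values include the doubted day 5 arrays of E1 and E2, and no marker values without them are given. On water arrays of day 5 fat body levels ran from 9.86 to 10.7, and on those of days 1 and 2 from 10.2 to 11.1. Between day 5 and day 1, 15 of the 22 markers were called, against 43.2% of all probe sets: 3 of 4 fat body markers, 4 of 4 neuron markers and 1 of 3 Malpighian tubule markers were lower on day 5, 3 of 4 midgut markers and 1 of 3 muscle markers were higher, and of 4 haemocyte markers 2 were higher and 1 lower. The part of these tissues in the Prat2 differences was not tested.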

How the data were processed

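Each deposited value is the log2 expression of 1 probe set. The submitters' processing notes name GCRMA and affy, without versions, as what the authors used. GCRMA subtracts a background modelled from probe sequence, so values below about 4 are set largely by that model. The labels state 35 hybridised samples, and 34 arrays were analysed here.

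Gene names come from the platform annotation (13647 name 1 gene, 402 several, and 4720 have no entry); 13544 were matched to a RefSeq gene table. Of several probe sets for a list gene, the one with the highest mean was taken. The annotation names no build, so no coordinates are printed.

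R 4.3.3 and limma 3.58.1 (with an intensity trend) fitted the 12 means of population and exposure plus extraction day to all 34 arrays; terms of exposure by day were added for the daily responses, and each probe set minus Prat2 was fitted for the direct comparison. Regimes were compared over 6 population values. Tests were two-sided and Benjamini-Hochberg adjusted over all 9729 tested probe sets at 0.05, or over 9651 without the doubted arrays. Errors after ± are limma standard errors. The number of arrays limits precision. The fits of all 34 arrays were tested on simulated data, for exposure, the ethanol minus control response and the response by day. The fits minus Prat2 and those without the doubted arrays were not. Deviations from the group means of arrays of the same day correlated at 0.394, 0.184 and 0.423 on average on days 1, 2 and 5. Those of different days correlated at -0.196, but taking deviations from each group's own mean pushes this value below 0 in advance. The labels describe extraction blocks with 1 sample per population and exposure. For the same-day correlations and these labels, day, as read from the title numbers, is a term of each fit.

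The 6 genes, the lists, the markers and the rule for naming (up to 4 genes per list by smallest p for exposure, and the 5 genes most like Prat2; Got1 and the markers called are named besides) were chosen with earlier results of these data known. Differences between sister populations within 1 exposure, the interchanged day 5 labels, single arrays left out and control-only days were added after the values were seen. The alternatives were no filter, a stricter filter (mean of 6 or more), no day term, median centring, quantile normalization, no trend, robust moderation, values below 4 set to 4, each day alone, omission of single days, populations and arrays, arrays as replicates and population differences as replicates.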

Additional observations from a re-analysis of the deposited data

Results flagged for a closer look

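One array stood apart within its group. On water-soaked M1 of day 5, ade5 measured 11.11, the highest of 5 water-soaked variable arrays, of which the nearest measured 9.90. The gap was 0.787 of the group's range, above the critical value of 0.71 for 5 samples. The same array gave the highest water value of Prat2 (9.16), and it is among the 8 day 5 arrays whose profile did not match the labelled population. Of 36 groups examined 1 was marked in this way, where chance alone gives about 1 in 20, or 1.8 here. What set this array apart was not tested.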

How the results depend on the processing

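The rise of Prat2 after ethanol kept its direction and its call in 57 of 57 alternatives over all populations (1.91 to 2.93) and in 53 of 53 within the control regime (3.07 to 4.70), as did the day 5 rise in 50 of 50 (1.61 to 2.52). In the variable regime the value was 2.69 without the 8 day 5 arrays, where water-soaked M1 and ethanol-soaked M2 have a single array each. With the day 5 labels interchanged the call was gained (2.28). Over all single omissions of a day, population or array the value ran from 0.55 to 3.0. It passed without E1 or water-soaked E1 of day 5. Omitting day 5, ethanol-soaked M2 of day 2 or water-soaked M1 of day 5 leaves a group with a single array. In the ethanol regime the call was gained without the 8 arrays (1.31) and with interchanged labels (1.11). Omissions there ran from 0.74 to 2.13, passing without day 5, M1, or water-soaked M1 of day 1 or day 5. Leaving out R2 brought the response differences of the ethanol and variable regimes against controls past the threshold (omissions from -3.26 to -1.64 and from -3.24 to -0.89). With values below 4 set to 4 the ethanol minus variable response turned to 0.059 (omissions from -1.56 to 0.98). Without the 8 arrays the ethanol minus control level after ethanol turned to 0.19 (omissions from -1.32 to 0.91) and the variable minus control level in water to -0.21 (omissions from -0.12 to 2.24). With arrays as replicates the ethanol minus control level in water passed (2.25). E2 minus E1 in water lost its call with no replicate block, that is no day term (-3.62), and ran from -4.80 to -2.98 over omissions. For ade5, R2 minus R1 ran from -0.81 to -0.64 over omissions, and the exposure change lost its call without the 8 arrays (-0.18), day 2, R2, E1 or water-soaked M1 of day 5, on day 1 alone (-0.15) and on day 5 alone (-0.21), with omissions from -0.35 to -0.14. For ade3 it passed without M1 (0.25). Prat lost its call on day 1 alone (-0.028). The uncalled changes of ade2 and AdSL turned: ade2 to -0.015 without the 8 arrays and -0.11 on day 2 alone (omissions from -0.048 to 0.092), AdSL to 0.16 on day 1 alone (omissions from -0.12 to 0.0088). The count of probe sets called for exposure was 3037, 1777 without day 2 and 1777 to 3097 over omissions. The count for the ethanol minus control response was 0, against 2 without the 8 arrays, 1 with values below 4 set to 4, 4 with interchanged labels and 0 to 20 over omissions. Where an alternative changed a call, the cause was not tested, except that omissions leave fewer arrays.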
